A study of Mus musculus with 3 samples.

Results

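HBO1 peaks were described along a stretch of mouse chromosome 3, from 102.5 to 141 Mb of mm10, in which input DNA was denser than on the other autosomes. Peaks were taken as members when their summit, the base with the highest signal in the peak, lay between these limits. This gave 695 of the 13823 peaks in the list. The limits were chosen by the density of input and of peaks in these same data, so the number of peaks per Mb, their spacing and the input level describe the segment and test nothing about it. All samples were undifferentiated Oct1 deficient mouse embryonic stem cells (ESCs), made without the product of Pou2f1, a paralog of Oct4. They were grown with 3 µM CHIR99021, which inhibits GSK3, with a MEK inhibitor at 1 µM and with ascorbic acid at 50 mg/mL, and were fixed with 1% formaldehyde. HBO1 was immunoprecipitated in 2 samples, and 1 input sample of sheared chromatin was sequenced beside them. No sample of ESCs with Oct1 was analysed here. The labels give the antibody of the second ChIP sample as HBO2, while its title and the methods give HBO1. The list pools both ChIP samples, so no value below has a spread between replicates and no p-value was computed. Confidence intervals cover counting error only. No expression was measured, so the cell type could not be checked against its markers.

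HBO1, encoded by Kat7, is a histone acetyltransferase of the MYST family. It works in a complex with a scaffold protein, of the Jade or Brpf families, an ING protein that reads histone methylation, and Eaf6. The complex acetylates the tails of histones H3 and H4, is found at the starts of active genes, and is needed for the licensing of replication origins. In ESCs the question behind these samples was where the complex sits relative to Oct4, a transcription factor of pluripotency. Oct4 binds the octamer element and, as a dimer, the more palindromic octamer related element (MORE). The paper reports that HBO1 prefers sites near MOREs over octamer sites. The chromosome 3 segment holds genes for chromatin proteins, for parts of the Wnt and growth factor pathways, and the Gstm, Adh and Amy gene families.

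Reference sequences of 150 bp around the summit are given for peaks that show the range found in the segment, all from GRCm38 and on the plus strand. The first is the peak within 1 kb of a TSS with the highest fold enrichment, 9.58, the authors' ratio of ChIP signal to the local background. It lay in an intron, 797 bp from a TSS of Sec24d, a coat protein of transport vesicles, and its window is chr3:123353720-123353869. The next is the distal peak with the highest fold enrichment, 10.9, in an intron of Elovl6, a fatty acid elongase, at chr3:129573474-129573623. A distal peak is one over 1 kb from any TSS. The third is the distal peak with the median fold enrichment, 5.30, between genes at chr3:135698800-135698949 and 7169 bp from a TSS, with Nfkb1 as its nearest coding gene. The fourth and the fifth are the peaks nearest to the outermost TSS of Tet2, which encodes an enzyme that oxidizes methylated cytosine, at chr3:133544704-133544853, and of Lef1, which encodes a transcription factor of the Wnt pathway, at chr3:131116304-131116453. Capitals mark CG dinucleotides.
Sec24d: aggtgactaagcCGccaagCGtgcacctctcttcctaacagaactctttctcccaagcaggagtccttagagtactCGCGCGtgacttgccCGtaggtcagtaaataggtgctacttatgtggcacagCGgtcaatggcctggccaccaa
Elovl6: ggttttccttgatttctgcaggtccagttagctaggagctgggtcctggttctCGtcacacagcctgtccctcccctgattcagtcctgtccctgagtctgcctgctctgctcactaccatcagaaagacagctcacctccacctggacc
Nfkb1: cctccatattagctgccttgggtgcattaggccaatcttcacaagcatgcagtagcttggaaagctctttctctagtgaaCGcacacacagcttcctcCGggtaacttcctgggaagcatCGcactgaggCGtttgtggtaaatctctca
Tet2: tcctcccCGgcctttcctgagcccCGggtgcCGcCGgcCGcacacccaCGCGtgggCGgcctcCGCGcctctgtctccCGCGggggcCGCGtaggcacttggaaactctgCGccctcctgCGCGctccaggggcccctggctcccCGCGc
Lef1: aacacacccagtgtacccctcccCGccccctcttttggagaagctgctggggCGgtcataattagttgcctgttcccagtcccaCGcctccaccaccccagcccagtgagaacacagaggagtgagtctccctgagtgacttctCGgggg

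The Tet2 window held 19 CG dinucleotides and 78% GC, as is common at the starts of widely expressed genes. The Elovl6 window held 1 and 56%, the Nfkb1 window 4 and 50%, the Sec24d window 7 and 54%, and the Lef1 window 4 and 60.7%. Fold enrichment was lowest at Tet2, with 2.01, then 3.44 at Lef1, 5.30 at Nfkb1, 9.58 at Sec24d and 10.9 at Elovl6. The 1 kb at the summit held 278 read ends of input at Tet2, 19 at Lef1, 11 at Sec24d, 10 at Elovl6 and 1 at Nfkb1. The start of Tet2 stood apart from the other windows in CG number and in input.

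The segment held 18.1 peaks per Mb, and chromosome 3 from 3 to 100 Mb held 3.89, with 377 peaks over 97 Mb. The ratio was 4.64 (95% interval 4.09 to 5.28, derived from an exact binomial share). Peaks within 1 kb of a TSS and distal peaks took unequal parts in it. Near TSSs there were 158 peaks against 170, a density ratio of 2.34 (1.87 to 2.93). Distal peaks numbered 537 against 207, a ratio of 6.54 (5.56 to 7.71). The ratio of distal peaks also varied with the authors' −log10 q, where q is the p-value adjusted over all candidate peaks. At a given fold enrichment −log10 q rises with the number of fragments, so a class need not hold like peaks in both stretches. The ratio was 2.48 (1.71 to 3.59) for −log10 q under 5, with 61 peaks in the segment. From 5 to 10 it was 7.20 (5.75 to 9.08), with 300 peaks. From 10 to 20 it was 12.6 (8.63 to 18.9), with 165 peaks in the segment and 33 from 3 to 100 Mb. At 20 or more it was 3.96 (1.40 to 12.1), from 11 and 7 peaks. That last interval is wide and overlaps the one from 10 to 20.

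The input level, which set the limits, is given as a description. Corrected for GC content, input in the segment was 2.41 times that of the other autosomes (SD 0.135 over 18 windows of 2 Mb, range 2.21 to 2.73). From 3 to 100 Mb the same ratio was 1.02 (SD 0.0779 over 48 windows), which puts the segment at 2.36 times that stretch of its own chromosome. Each of these 18 windows was therefore above every one from 3 to 100 Mb, of which the highest was 1.21. The 18 windows leave out both ends of the segment, where input from 140.5 to 141 Mb was 0.807. Counting read ends of any mapping quality, the segment held a mean of 10.5 and a median of 5 per 1-kb window. From 3 to 100 Mb these were 4.93 and 2. The mean GC content was 40.5% in the segment and 40.3% from 3 to 100 Mb. Beyond 141 Mb the input ratio was 0.494, with 23 peaks of which 11 were distal. The distal peak density ratio was above the input ratio. The density ratio of peaks near TSSs, coding and noncoding pooled, was close to the input ratio. Peaks near a coding TSS were 14.0% of all peaks in the segment and 36.1% from 3 to 100 Mb. For peaks near noncoding TSSs alone the shares were 8.78% and 9.02%. The density ratio was therefore lower near coding TSSs than near noncoding TSSs alone. Neither kind was set against the input ratio by itself. Whether DNA content sets the number of peaks was not tested.

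**Figure D1:**
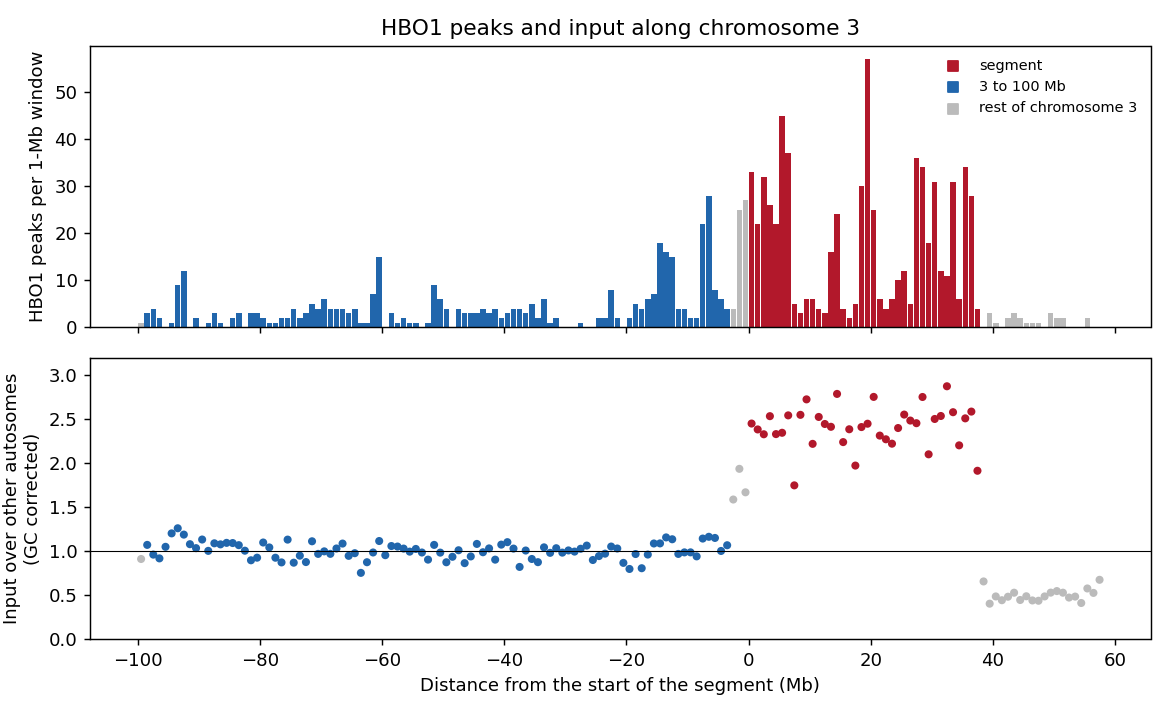
HBO1 peaks in windows of 1 Mb (upper, bars) and GC corrected input relative to the other autosomes (lower, points) along chromosome 3, by distance from the start of the segment in Mb. Windows of the segment (red) held from 2 to 57 peaks, those from 3 to 100 Mb (blue) from 0 to 28, and the input ratio ran from 1.75 to 2.88 in the segment and from 0.755 to 1.26 from 3 to 100 Mb.

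The start of the segment was not a single step. In steps of 0.5 Mb the input ratio was 0.966 from 98.5 to 99 Mb, 1.16 in the next step, and 1.37 from 99.5 to 100 Mb. It was 1.74 from 100 to 100.5 Mb and 1.60 from 102 to 102.5 Mb, and reached 3.12 from 103 to 103.5 Mb. Between 100 and 102.5 Mb, outside the segment by the rule, input was 1.80 times the other autosomes and there were 56 peaks, 48 of them distal. That stretch was richer in GC than the segment, at 44.6%. The end was sharper. Input was 1.86 from 140 to 140.5 Mb, 0.807 from 140.5 to 141 Mb and 0.491 in the next step. Inside the segment the level was uneven, with the highest values 3.76 from 106 to 106.5 Mb and 3.36 from 116.5 to 117 Mb. Apart from the last step, the lowest values were 1.498 from 109.5 to 110 Mb and 1.73 from 113 to 113.5 Mb, beside a median of 2.36 over all steps of 0.5 Mb.

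The peaks at the limits were described with no test. The first summit inside was at 102523175, between genes, with a fold enrichment of 5.97. The last one before it was at 102333145, in an intron, with Vangl1, a planar cell polarity protein, as its nearest coding gene and a fold enrichment of 4.31. The last summit inside was at 140383003, between genes and 829189 bp from the nearest coding TSS, that of Pdha2, with a fold enrichment of 3.78. The next one outside was at 141610146, in an intron, with Unc5c, a netrin receptor, as its nearest coding gene and a fold enrichment of 1.85. No peak lay from 140.5 to 141 Mb, so the end of the segment as set cut through no group of peaks.

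A smaller share of the segment's peaks lay near TSSs than elsewhere. Since peak density set the limits of the segment, this share is a description and tests nothing. Some GENCODE transcript started inside the peak or within 1 kb of its edge for 22.7% of the 695 peaks (exact binomial 95% confidence interval 19.7 to 26.0%). The share was 45.1% (40.0 to 50.3%) from 3 to 100 Mb and 42.4% (41.5 to 43.3%) of 12237 peaks on the other autosomes. Peaks near a coding TSS numbered 97, or 14.0%, in the segment, against 36.1% from 3 to 100 Mb. Those near noncoding TSSs alone made up 8.78% and 9.02%. These are shares of the peaks, so they fall where distal peaks are more numerous, and the density of peaks near TSSs was itself higher in the segment. Of the rest of the segment's peaks, 258 lay 1 to 10 kb from a TSS, 215 lay 10 to 50 kb away and 64 were farther. Summits of the 537 distal peaks were in introns for 250 and between genes for 244, with 22 in exons and 21 in UTRs. From 3 to 100 Mb introns held 36.7% of the distal summits (30.1 to 43.7%), against 46.6% in the segment (42.3 to 50.9%). The median distance of a distal peak to the nearest TSS was 10709 bp (9399 to 12226).

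The base composition of the distal peaks was narrow. In the 200 bp around the summit, 483 of the 537 had a GC content from 50% up to 60%, a share of 89.9% (87.1 to 92.4%), against 64.3% (57.3 to 70.8%) from 3 to 100 Mb and 77.8% (76.8 to 78.7%) on the other autosomes. Only 31 of them, 5.77%, reached 60%, against 31.9% and 20.1%. All windows of 200 bp in the segment had a median of 40.5%, so the distal peaks sat in DNA richer in GC than their surroundings and poorer than the peaks near TSSs, whose median was 61%. They held a median of 4 CG dinucleotides, against 7 from 3 to 100 Mb. Repeats covered a mean of 29.2% of these windows, against 57.4% from 3 to 100 Mb and 40.5% on the other autosomes, and 62 of the windows, 11.5%, were wholly repeat, against 42.0% and 27.0%. The GC content, CG number and repeat share were not used to set the limits of the segment, but the peaks they describe were.

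The median fold enrichment of the segment's distal peaks was 5.30 (5.11 to 5.49), against 4.56 (4.13 to 4.81) from 3 to 100 Mb and 4.66 on the other autosomes. The sets differ in GC content, with 5.77% of these peaks at 60% GC or more in the segment and 31.9% from 3 to 100 Mb, and fold enrichment was low in that range. Within classes of GC content the intervals overlapped in all 5, and the segment's median was the higher one from 50 to 60% GC, where 89.9% of its distal peaks lay, and the lower one in the other 3 classes, with 5.01 against 5.54 under 50%, 2.73 against 3.04 from 60 to 65% and 2.20 against 2.40 from 65 to 75%. Their median −log10 q was 7.96, against 6.32 and 6.21, and their median width of 340 bp was close to 347 and 340. With input matched, the median of the segment was higher in each class of up to 60 read ends, with intervals apart in 2 of the 4. Among distal peaks with at most 4 read ends of input per 1 kb at the summit the median was 6.04 (5.79 to 6.28) in the segment and 5.30 (5.05 to 5.55) from 3 to 100 Mb. With 10 to 20 read ends the medians were 5.05 (4.93 to 5.34) and 4.40 (3.72 to 4.78), and with 21 to 60 they were 3.72 (3.39 to 4.08) and 2.69 (2.44 to 3.54). With 5 to 9 read ends they were 5.88 (5.57 to 6.19) and 5.39 (4.93 to 5.77). Over 60 read ends, where 27 distal peaks of the segment lay, the median was 2.19 (1.81 to 2.33) against 2.40 (2.16 to 2.69). Peaks near TSSs had a median of 2.91 (2.58 to 3.52) in the segment and 2.84 from 3 to 100 Mb. A given input count is a lower multiple of the surrounding input in the segment, and peaks matched on the count differ in that multiple.

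**Figure D2:**
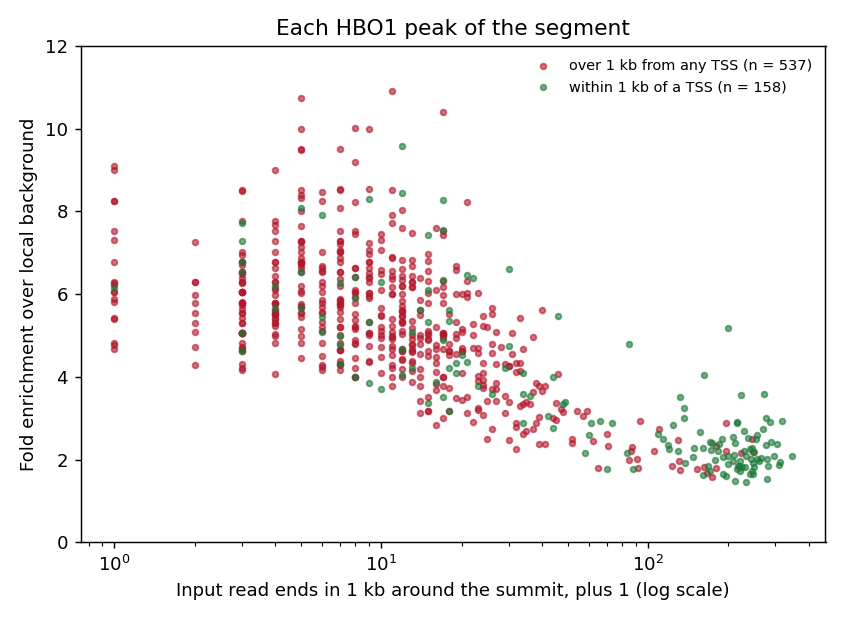
Fold enrichment of each of the 695 peaks of the segment against the input read ends counted in 1 kb at its summit, plus 1, on a log scale. Of the peaks near TSSs (green), 86 of 158 had over 60 read ends, with a median fold enrichment of 2.19, and of the distal peaks (red) 27 of 537 did.

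A peak's ChIP pileup is the number of fragments stacked at its summit. It was solved, with the local background it was set against, from the authors' fold enrichment and p-value together. Where several whole-number pileups fitted, the midpoint of their lowest and highest background was taken. Both terms could be solved for 644 of the 695 peaks, on the peak caller's own scale and with 1 added to each. The other 51 are no random remainder, since 6 of the 10 peaks with the highest fold enrichment and the one with the highest −log10 q are among them. Of the distal peaks, 492 of 537 were solved in the segment and 200 of 207 from 3 to 100 Mb, and the medians of background and pileup cover solved peaks alone. Over 13302 peaks of the whole list the background so found followed the input read ends in 1 kb, with a Spearman correlation of 0.960, given as a description. At GC-rich summits both terms were higher in the segment. For peaks near TSSs with at least 75% GC, the median background was 82.8 in the segment and 32.5 from 3 to 100 Mb, and the median pileup was 178 and 84.2. The fold enrichment was then lower in the segment, at 2.08 (1.96 to 2.40) against 2.66 (2.48 to 2.96). For those from 65 to 75% GC the background was 68.9 and 31.1 and the pileup 139 and 73.5. At distal summits from 50 to 55% GC the background was nearly the same, 4.56 in the segment and 4.20 from 3 to 100 Mb. The pileup there was 25.3 against 21.5, and the fold enrichment 5.53 (5.30 to 5.79) against 4.85 (4.61 to 5.47). From 55 to 60% GC the background was 5.67 and 4.55 and the pileup 30.3 and 23.5. Distal summits richer in GC were like those near TSSs, with a background of 31.9 against 15.1 from 60 to 65% GC, from 17 and 32 peaks, and of 56.4 against 37.9 from 65 to 75%. Near TSSs the background from 50 to 55% GC was 5.38 and 4.68, so at both kinds of peak the gap in background was wider at 60% GC and above than from 50 to 55%. Macs2 lets the background fall no lower than a genome-wide mean, and the lowest value solved was 3.23 in the segment and 3.21 from 3 to 100 Mb. How often that limit set the background was not tested.

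**Figure D3:**
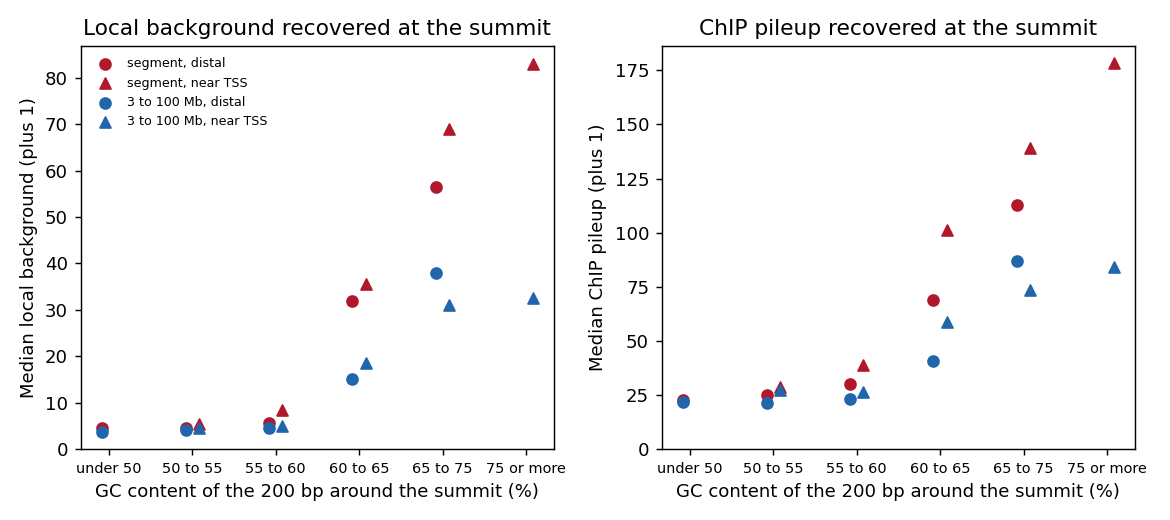
Median local background (left) and median ChIP pileup (right) recovered at the summit, each plus 1, by GC content of the 200 bp around the summit, for peaks of the segment (red) and from 3 to 100 Mb (blue), distal (circles) or near TSSs (triangles). At 60% GC and above the background and the pileup were higher in the segment in each class shown, and for peaks near TSSs from 55 to 60% GC the background was 8.54 in the segment and 5.11 from 3 to 100 Mb.

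The input itself rose at the summits. Within 200 bp on each side of distal summits of the segment it had a mean of 1.91 read ends per 100 bp. On the flanks, from 3 to 5 kb on each side of the summit, the mean was 1.03, a ratio of centre to flanks of 1.85. From 3 to 100 Mb these were 1.07 and 0.491, a ratio of 2.18. Around peaks near TSSs the mean was 15.1 in the segment and 8.11 from 3 to 100 Mb, with ratios to the flanks of 12.8 and 11.4. These are means over peaks. The median input per 1 kb at distal summits was 10 in both stretches, with intervals of 8 to 10 in the segment and 9 to 12 from 3 to 100 Mb, and the upper quartile was 17 in the segment and 33 from 3 to 100 Mb.

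**Figure D4:**
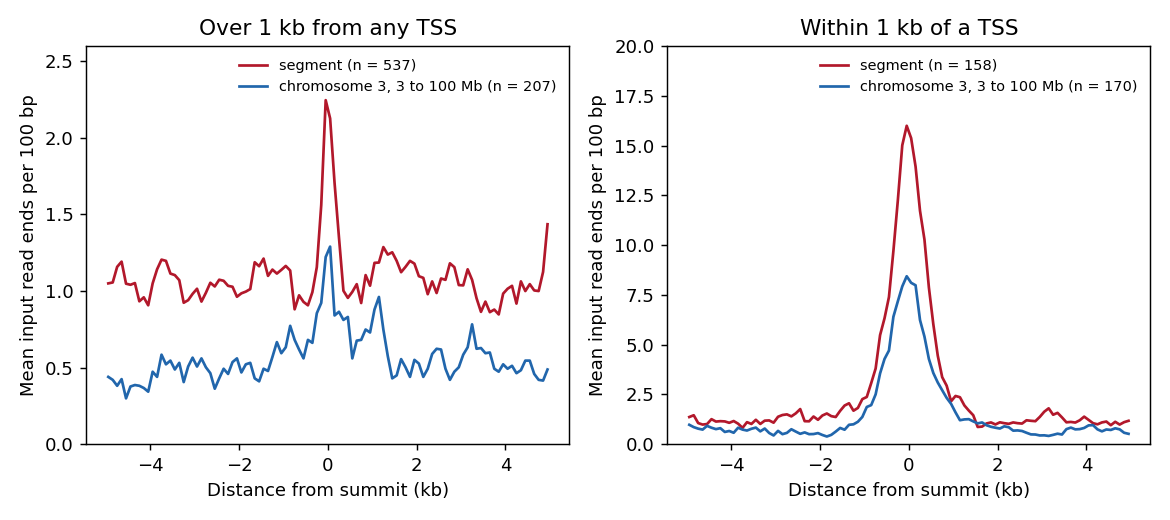
Mean input read ends per 100 bp by distance from the summit in kb, for distal peaks (left) and peaks near TSSs (right) of the segment (red) and from 3 to 100 Mb (blue). The distal flanks were at 1.03 in the segment and 0.491 from 3 to 100 Mb, and the rise at the centre was larger near TSSs.

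Neighbouring summits of the segment were a median of 20982 bp apart (95% interval 17603 to 24457) and a mean of 54553 bp, and 83 of the 694 gaps were over 100 kb. From 3 to 100 Mb the median was 93120 bp. Between distal summits it was 25324 bp and 249878 bp. Gaps under 10 kb made up 35.3% of 694 in the segment and 16.5% of 376 from 3 to 100 Mb, while gaps under 1 kb had like shares, 4.61% and 4.52%. The closest groups of 5 summits were in introns of Cnn3, which encodes the actin-binding protein calponin 3, within 4008 bp, at Ppa2, a mitochondrial pyrophosphatase, within 4147 bp, and at Bcar3, an adaptor of Cas and Src signalling, within 7709 bp. At Cnn3 the 5 were all distal, with fold enrichments from 3.18 to 6.39. The longest stretches without a peak were 1060208 bp between Rnpc3 and S1pr1, over the starts of Col11a1, a collagen of cartilage, and Olfm3, 966740 bp over Ndst4 and Ugt8a, and 907991 bp over Dpyd, the first enzyme of pyrimidine breakdown. Input inside these stretches was 2.41, 2.14 and 2.35 times that of the other autosomes, close to the rest of the segment, and their GC content was 36.5, 37.2 and 37.8%.

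Across 38 windows of 1 Mb the number of peaks ran from 2 to 57, with a median of 14, and no window was empty. Of the 96 windows from 3 to 100 Mb 14 were empty and the median was 3. In the segment 17 windows with 20 or more peaks held 547 of the 695. The window with the most, from 121.5 to 122.5 Mb, had 57 peaks, 49 of them distal, and 9 coding gene starts, among them F3, Abca4, Gclm and Bcar3. The next, from 107.5 to 108.5 Mb, had 45 peaks and 29 coding starts. The windows with more peaks were those with more GC. The median was 4 peaks in 8 windows under 38% GC, 6 in 8 windows from 38 to 40%, 24.5 in 10 windows from 40 to 42%, 31.5 in 8 windows from 42 to 44% and 39.5 in the 4 above. As a description, the number of distal peaks had a Spearman correlation of 0.861 with GC content, 0.762 with coding gene starts and 0.368 with the input ratio, over 38 windows that share 1 library and differ in base composition.

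Of 255 coding genes with their outermost TSS in the segment, 79 had a peak within 1 kb of it, or 31.0% (25.4 to 37.0%). The share was 18.7% over the whole list, with 4093 of 21938 genes, and 20.3% of 646 genes from 3 to 100 Mb. Since peak density set the limits of the segment, nothing is read from this difference. The share rose with the GC content of the gene start, from 4.26% of 47 under 45% GC to 74.3% (56.7 to 87.5%) of 35 at 65% or more. From 3 to 100 Mb the same classes gave 0% (exact interval 0 to 2.31%) of 158 and 59.7% (46.4 to 71.9%) of 62. The rates of chromosome 3 from 3 to 100 Mb in each GC class gave 60.3 genes where 79 were found, and those of the other autosomes gave 48.8. A further 113 genes had no peak at the start but at least 1 in the gene or within 10 kb of it, and 63 had none. The 3 largest genes without one, with the margins, were the heparan sulfate enzymes Ndst4 and Ndst3, and Bank1, a B cell adaptor.

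**Figure D5:**
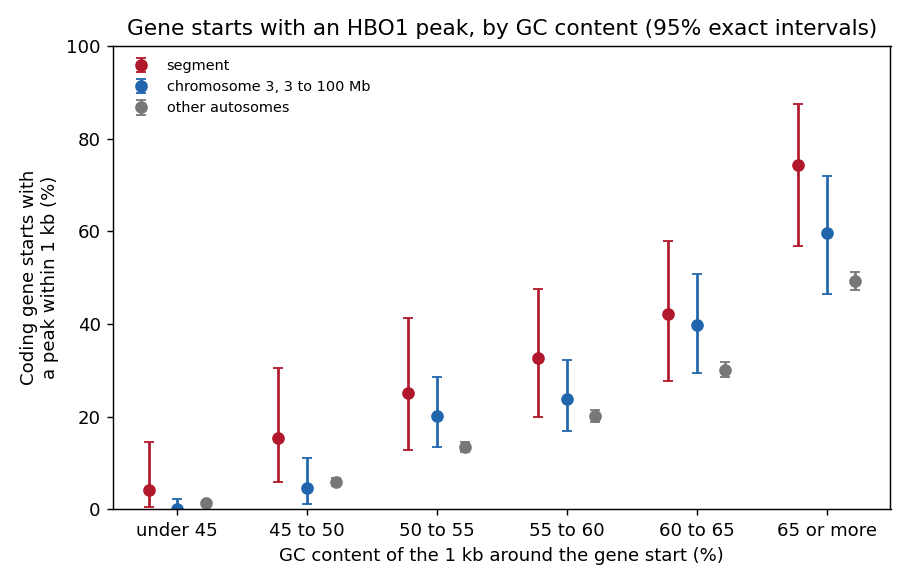
Share of coding gene starts with an HBO1 peak within 1 kb, in percent, by GC content of the 1 kb around the outermost TSS, with exact 95% intervals, for the segment (red), chromosome 3 from 3 to 100 Mb (blue) and the other autosomes (grey). All rose with GC content, and in each class the segment was highest, with intervals that overlap those from 3 to 100 Mb.

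The peaks with the strongest −log10 q were at gene starts. The highest, 141, lay across the TSS of Dnajb14, a chaperone of the endoplasmic reticulum membrane, at chr3:137867214-137868296, with a fold enrichment of 5.17 and 198 input read ends. The start of the neighbouring gene H2afz, which encodes the histone variant H2A.Z, had a −log10 q of 56.6, a fold enrichment of 2.94 and the highest background solved in the segment, 112. Cnn3 had 60.5 and 3.58, and Eif4e, which encodes the cap-binding protein of translation, had 49.1 and 3.56 at a peak 23 bp from one of its TSSs. A peak over Snora24, a small nucleolar RNA, had 50.5 and 4.03. The highest fold enrichments were instead distal, in DNA with little input. After Elovl6, with 10.9, they were 10.7 at a peak between genes with Eif4e nearest, 10.4 in an intron of Tet2, 10.0 in an intron with Sgms2, a sphingomyelin synthase, nearest, and 9.99 between genes with Egf, epidermal growth factor, nearest. These 5 had from 4 to 16 input read ends in 1 kb, while the 5 with the highest −log10 q had from 161 to 316. The solved background was 3.90 at Elovl6, 3.45 at Eif4e and 3.51 at Sgms2, near the lowest solved in the segment, 3.23. The pileups there were 42.5, 37.0 and 35.1. The peaks at Tet2 and Egf could not be solved.

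The gene lists were chosen with earlier results of these data known, and their counts are a description to be read beside the 31.0% of all 255 starts in the segment. The 4 genes of the chromatin list all had a peak at the start. These were Tet2, with 2.01-fold enrichment and −log10 q 11.9, H2afz, Prmt6, an arginine methyltransferase of histone H3, with 2.12 and 9.66, and Dnttip2, a nucleolar protein, with 2.35 and 13.6. Tet2 had 9 peaks in the gene or within 10 kb, 7 of them distal, with fold enrichments from 2.01 at the start to 10.4 in the intron 26678 bp from the nearest coding TSS. The start peak had 278 input read ends, and the intronic one 16.

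None of the 4 genes of the Wnt list had a peak at the start, beside 31.0% of all starts in the segment. Lef1 had its nearest peak 5823 bp from the outermost TSS, in an exon, with a fold enrichment of 3.44, and 8 peaks in the gene or within 10 kb of it, from 2.90 to 5.61. Wnt2b, a ligand, had its nearest peak at 15176 bp, and Dkk2, a secreted antagonist, at 142768 bp. Cxxc4, an inhibitor that binds Dishevelled, had it at 55080 bp. Of 4 regulators of lineage and TGF-β signalling, Trim33, a ubiquitin ligase that acts on Smad proteins, had a peak at the start, at 578 bp with 2.09 and the highest input of any peak in the segment, 344 read ends. The proneural gene Neurog2 had none within 20062 bp, and the outermost TSS of Olfm3, a secreted protein of neurons, had none within 176817 bp, while a peak covered another of its TSSs.

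Of the 9 genes of the signalling list in the segment, 5 had a peak at the start, beside 79 of all 255. Nras, a small GTPase downstream of growth factor receptors, had 2.07, Nfkb1, an NF-κB subunit, 1.94, Hipk1, a nuclear kinase, 2.26, Gnai3, an inhibitory G protein subunit, 1.48, and Ppp3ca, the calcineurin catalytic subunit, 1.91. The other 4 were Rhoc, a small GTPase, with a peak at 2449 bp from the outermost TSS and 644 bp from another, and the secreted factors Csf1 at 7893 bp and Egf at 29686 bp, and S1pr1, a lipid receptor, at 53817 bp. Genes of cell division had one in 3 of 5, namely Cenpe, a kinetochore motor, with 2.49, Sass6, a centriole assembly protein, with 1.85, and Gpsm2, which orients the spindle, with 1.66. Psrc1 had one at 1134 bp from the outermost TSS and 116 bp from another, and Cdc14a, a phosphatase, at 13667 bp. Genes of RNA and translation had one in 3 of 7, among them Gar1, a protein of H/ACA small nucleolar particles, with 2.35, and Metap1, a methionine aminopeptidase, with 2.89. Eif4e at 1140 bp and Ptbp2, a splicing regulator, at 1037 bp were just outside the limit at the outermost TSS, and a peak lay 23 bp from another TSS of Eif4e and across another of Ptbp2. Larp7, which binds the 7SK RNA, was at 6993 bp, and Mettl14, a subunit of the RNA methyltransferase that makes m6A, was at 15793 bp.

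The 15 starts with a peak named from these lists had fold enrichments from 1.48 to 2.94, with backgrounds from 46.5 to 112. Of the 4 starts with a peak in the gene families, those of Gstm3 and Adh6b had lower backgrounds and higher fold enrichments. At Gstm3, of the glutathione transferases, a peak covered the TSS with a fold enrichment of 7.54, a background of 5.60 and 16 input read ends, and it was the only outermost TSS with one among 7 Gstm genes, while Gstm6 had a peak 1147 bp from its outermost TSS and 760 bp from another. At Adh6b, of the alcohol dehydrogenases, a peak covered the TSS with 8.09, a background of 3.55 and 4 input read ends. By contrast Adh5, the member of the family expressed in most tissues, had 1.90 with a background of 87.1 and 199 input read ends. Of 6 Adh genes these 2 had a peak at the start. Their starts held 46.1% GC at Adh6b, 50.6% at Gstm3 and 62.5% at Adh5. Of 3 Kcna potassium channel genes Kcna3 had one, with 1.96 and a background of 59.1. None of the 6 amylase genes did, and their starts held from 31.5 to 36.1% GC. Gstm and amylase genes include closely similar copies, and whether reads that map to several places were kept was not stated, so their counts are uncertain. Over all 55 genes of these lists, 20 had a peak at the start, beside 79 of all 255.

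Several genes held many peaks. Of the 255, 26 had at least 6 in the gene or within 10 kb of it. Bcar3 had 22, of which 18 were distal, over 256 kb with the margins. Manba, a lysosomal mannosidase, had 17 and Dennd2c, an exchange factor for Rab proteins, had 13. Cnn3, Ppa2 and Tspan5, a tetraspanin, had 13 each, and Slc44a3, a choline transporter-like protein, and Elovl6 had 10 each. Per 100 kb with the margins, Cnn3 had 25.1, Lamtor3, a scaffold of MAPK and mTORC1 signalling, 19.7, and Adh5 18.5. Where genes lie within 10 kb of each other, as Cnn3 and Slc44a3 do, a peak counts for both. Papss1, which makes the sulfate donor PAPS, and Tet2 had 9 each. The other 16 had from 6 to 8, and among them were Kcnd3, Abca4, Sec24b, Col25a1, Lef1, Sort1, Nfkb1, Dnajb14, Tspan2, Syt6, Gpsm2, Fam102b, Cdc14a, Lamtor3 and Adh5.

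The letters of 5 short motifs were counted in the 200 bp around each summit, on both strands. The MORE was not among them, so the counts do not bear on the paper's comparison of MORE with octamer sites. The octamer ATGCAAAT is an element that Oct4 and Oct1 bind. It was in 0 of 158 windows near TSSs (exact interval 0 to 2.31%) and in 3 of 537 distal ones, 0.559% (0.115 to 1.62%). It was in 1.86% of all windows of that length in the segment, which have less GC than the peaks, in 0.483% of 207 distal windows from 3 to 100 Mb, and in 0.227% of 7051 on the other autosomes. The GC box GGGCGG, read by Sp1 and its relatives, was in 38.6% (31.0 to 46.7%) of windows near TSSs and 11.4% (8.80 to 14.4%) of distal ones, against 1.61% of all windows. From 3 to 100 Mb it was in 46.5% and 23.7%, and on the other autosomes in 48.9% and 16.5%. The ETS core CCGGAAG was in 5.06% (2.21 to 9.73%) and 2.98% (1.71 to 4.79%), against 0.524% of all windows. On chromosome 3 from 3 to 100 Mb it was in 2.35% (0.645 to 5.92%) of windows near TSSs and 12.1% (7.97 to 17.3%) of distal ones. On the other autosomes the ETS core was in 4.7% and 5.83% (5.29 to 6.40%). The cyclic AMP response element TGACGTCA was in 4 distal windows, 0.745% (0.203 to 1.90%), against 0.0998% of all windows, 0.483% of distal ones from 3 to 100 Mb and 2.37% on the other autosomes. The Esrrb site TCAAGGTCA was in 2 distal windows, 0.372% (0.0451 to 1.34%), close to the 0.365% of all windows. Its share of distal windows was 1.93% (0.529 to 4.87%) from 3 to 100 Mb and 0.596% (0.430 to 0.804%) on the other autosomes. Neither this site nor the cyclic AMP response element was in any window near a TSS in the segment. GC content differs between these sets of windows and was not matched. The peak with the highest fold enrichment among those with an octamer, 5.01, lay between genes and 11538 bp from a TSS. Its window of 150 bp, chr3:137727241-137727390, is printed with the octamer in capitals and named by the nearest coding gene.
Gm21962: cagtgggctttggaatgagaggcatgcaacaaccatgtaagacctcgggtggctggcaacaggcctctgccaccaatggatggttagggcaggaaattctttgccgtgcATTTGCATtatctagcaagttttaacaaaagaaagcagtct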

How the data were processed

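Paired reads of the HBO1 ChIP and input samples were aligned to mm10 by the authors with Novoalign v4.03.01, and peaks were called with Macs2 at q 0.005 and max-gap 100. How the ChIP samples were combined is not stated in the paper's text. The deposited peak list gives the authors' fold enrichment, a linear ratio over local background, a −log10 p and −log10 q, and a display score derived from them, which was not used. The deposited input gives each of 31973678 aligned read ends, 403223 of them in the segment, with a mapping quality score. It was not normalized. A small number of 1-kb windows, 272 with more than 500 read ends, held 51.6% of the input, and those over 200 were left out of the input ratio.

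TSSs came from GENCODE vM21 and sequence from GRCm38, the assembly named mm10, with repeats as soft-masked in RefSeq. TSS distances were measured from the edge of a peak, and were 0 for a TSS inside it. Read ends were counted at their midpoints. The input ratio used a mapping quality of at least 20 and windows from 30 to 65% GC, against the mean of the same 2% GC class on autosomes other than chromosome 3. ChIP pileup and background were solved from fold enrichment and −log10 p under the Macs2 Poisson model with a pseudocount of 1, which succeeded for 96.2% of all peaks. Shares have exact binomial intervals, and medians exact order-statistic intervals, at 95%. Python 3.11.15, numpy 2.4.6, scipy 1.17.1, pandas 2.3.3 and matplotlib 3.10.9 were used. Distances, the pileup solution, the intervals and the GC correction were tested on simulated data.

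The segment, its limits, the gene lists and the motifs were chosen with earlier results of these data known. Genes are named when they are in the lists, nearest to the top 5 peaks by fold enrichment or by −log10 q, at the limits, beside the longest gaps or closest groups, or hold at least 6 peaks. The genes named for windows of 1 Mb, as neighbours, for the largest bodies without a peak, and Sec24d were added after values were seen. Some genes and a sequence that these rules select are not reported here.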

Additional observations from a re-analysis of the deposited data

How the results depend on the processing

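Of 33 alternatives over 8 results, 18 stayed within the 95% interval of the value reported, or for input within 1 SD over 2-Mb windows, and 15 moved outside it. No paired analysis was possible because the peak list pools both ChIP samples, and for the same reason no replicate could be left out. The density ratio of 4.64 was 5.47 and 5.60 with −log10 q limits of 5 and 10, 6.54 for distal peaks and 2.34 for peaks near TSSs, and it was 4.75 when standardised by GC class. The share within 1 kb of a TSS, 22.7%, was 14.0% with coding transcripts and 31.8% with a limit of 10. The input ratio to chromosome 3 from 3 to 100 Mb, 2.36, was 2.17 with read ends of any mapping quality. Median spacing, 20982 bp, was 44083 bp with a −log10 q limit of 10 and 25324 bp for distal peaks. The median fold enrichment of distal peaks, 5.30, was 5.55 and 6.32 with limits of 5 and 10. The share of gene starts with a peak, 31.0%, was 38.8% with any TSS and 21.2% with a limit of 10. Median distal distance, 10709 bp, was 26000 bp to coding TSSs. The share with an octamer, 0.432%, was 0 of 258 peaks with a limit of 10. Counted over the whole peak, a longer stretch, it was 0.863%, inside the 95% interval of the value reported. The cause of each shift was not tested, apart from stricter limits leaving fewer peaks. With 1 input and 1 pooled list, biological variation cannot be measured, and a median of 10 input read ends per kb at distal summits limits the precision of their background.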
